A study of Mus musculus with 10 samples.

Results

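Of 10 granulosa cell libraries cut from mouse ovaries by laser, 4 carried the most marker RNA of a cell type that was not the target: the oocyte. The 4 were chosen by their measured reads of 24 oocyte marker genes, which took 0.152% to 0.375% of their reads. The whole share of oocyte RNA was not estimated. Levels are given as CPM, a gene's reads scaled to a common total of reads in rows with a gene symbol, and a library in which the markers summed to at least 1000 CPM was called oocyte-RNA-rich. NAC 3, NAC 4, saline 2 and saline 4 were rich, and the other 6 libraries (NAC 1, NAC 2, saline 1, saline 3, saline 5 and saline 6) were poor. All libraries came from wild-type C57B6/J females of 3 weeks that received either 150 mg/kg N-acetyl-L-cysteine (NAC, an antioxidant) or saline into the peritoneum daily on 3 days, and whose ovaries were removed on day 4. The labels give batch 1 for all of them, name granulosa cells as the captured cells, and list GEO-seq, a protocol for small captured areas, as the library method. They do not say which library came from which animal, so the p-values measure the spread between libraries, which may be technical or come from shared animals.

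The oocyte grows inside a shell of granulosa cells, joined to it by gap junctions, and signals to them with secreted factors such as GDF9 and BMP15. It builds the zona pellucida, a glycoprotein coat, and stores RNA and protein for meiosis and the first divisions of the embryo. Many of its genes belong to families that few other cells use, among them NLRP proteins of the egg cortex, oocyte homeobox (Obox) factors, oogenesins and F-box proteins.

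The marker sum of NAC 4 was 3746 CPM, that of saline 4 was 2971 CPM and that of NAC 3 was 1922 CPM. Just inside the threshold stood saline 2 with 1517 CPM, and just outside it NAC 1 with 680 CPM. Among the poor libraries the sum was 602 CPM in NAC 2, 146 CPM in saline 1, 105 CPM in saline 3, 48.5 CPM in saline 6 and 43.7 CPM in saline 5. Both poor NAC libraries thus stood above all 4 poor saline libraries. At least 21 of the 24 markers had reads in each rich library, 23 in NAC 1 and 15 in NAC 2, but 14 or fewer in each poor saline library, down to 3 in saline 6. These values chose the libraries and are given as a description, with no test.

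Gdf9, the gene of an oocyte-secreted growth factor (chromosome 11, 53431023 to 53437904 in GRCm38), had 199, 285, 185 and 417 CPM in NAC 3, NAC 4, saline 2 and saline 4. Its poor libraries ranged from 0 to 23.3 CPM with a median of 5.07. The ranges were apart. Zp3, which encodes a zona pellucida protein that sperm bind, had 43.2, 132, 117 and 310 CPM in the rich libraries in the same order and at most 4.66 CPM in a poor one. H1foo, the oocyte's linker histone, had 156, 540, 182 and 339 CPM in the rich libraries. Its poor values split by treatment, with 107 CPM in NAC 1, 154 CPM in NAC 2 and at most 8.26 CPM in saline. Of the 22 markers with enough reads to enter the test below, 13 had every rich library above every poor one, and the others overlapped. Dppa3, Oosp1 and Nlrp14 were higher in NAC 2 (82.8, 72.9 and 78.8 CPM) than in saline 2 (53.0, 30.7 and 25.8 CPM). Bmp15, partner of Gdf9, overlapped: NAC 3 held 8.64 CPM, a single read at its depth, while the poor NAC 2 held 37.4 CPM. Nlrp5, a part of the maternal complex under the egg's membrane, also overlapped, with 11.2 CPM in saline 2 and 12.8 CPM in NAC 1. Figla, an oocyte transcription factor, had reads in saline 4 alone, at 2.16 CPM.

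Uchl1, a ubiquitin hydrolase gene, and Tle6, whose protein sits in the same maternal complex, behaved unlike the other 22 markers. Reads of Uchl1 were present in all 10 libraries, at 27.9 CPM or more. Together both genes made up 60.3% to 97.5% of the marker reads in the poor saline libraries, but 9.44% to 19.6% in the rich libraries, 26.3% in NAC 1 and 7.86% in NAC 2. Without both, the sums of the rich libraries were 1219 to 3102 CPM, those of NAC 1 and NAC 2 were 501 and 555 CPM, and those of the poor saline libraries were 1.22 to 41.5 CPM. The order of rich above poor was thus the same with 22 markers. Across the markers the CPM profiles of NAC 4 and saline 2 had a Spearman correlation of 0.85, and those of NAC 3 and saline 2 one of 0.48 (24 markers of 1 library against another, as a description).

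**Figure D1:**
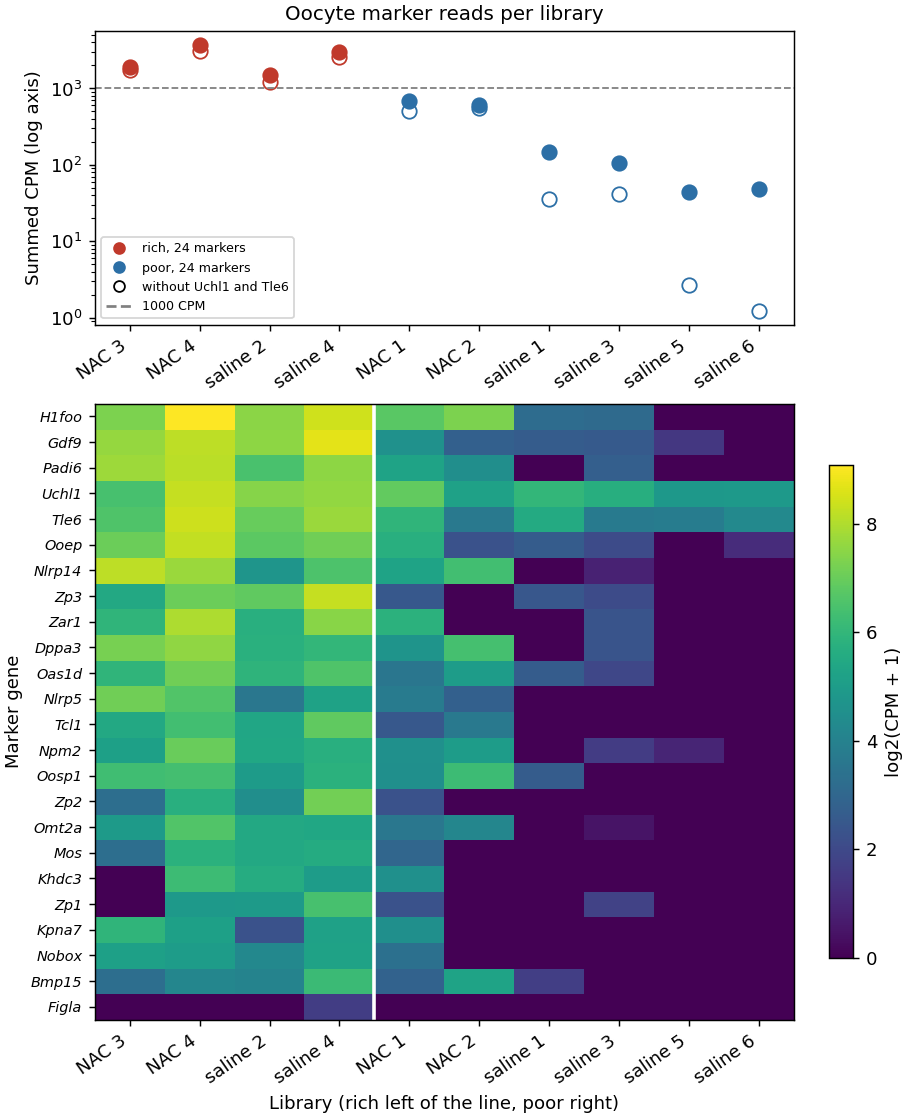
Top: CPM summed over 24 oocyte markers (filled) and over 22 without Uchl1 and Tle6 (open) in each library, on a log axis, with the 1000 CPM threshold dashed. Bottom: log2(CPM + 1) of each marker by library, with the 4 rich libraries left of the white line. NAC 1 and NAC 2 follow, with intermediate sums. NAC 2 has reads of only 15 of the 24 markers, and some of these, such as Dppa3, lie within the rich range. The 4 poor saline libraries are near 0 for most markers except Uchl1 and Tle6.

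Beyond the markers, rich libraries held more RNA of 49 genes and less of none at the threshold used. Rich and poor libraries were compared over all genes with treatment as a covariate by edgeR's quasi-likelihood test, which had 10945 genes after its low-count filter, 10923 of them outside the marker list. At a Benjamini-Hochberg adjusted p under 0.05, 49 genes (0.449% of those tested) were higher in rich libraries and 0 (0%) lower. The 22 tested markers stayed in the fit and in the adjustment, and 15 of them fell under the threshold. As the markers defined the split, their small p values ease the threshold for other genes. Calls near 0.05, such as Tuba3a (edgeR adjusted p = 0.0487), lean on this, and an adjustment without the markers was not run. At an unadjusted p under 0.05 edgeR counted 233 higher and 124 lower. DESeq2 called 96 higher and 2 lower, Lum and Nsl1, and limma-voom 121 higher and 0 lower. All 49 are annotated as protein-coding, and their log2 folds of rich over poor ran from 1.69 to 7.73 with a median of 4.58, while the median of all tested genes outside the list was -0.01. In 46 of the 49, every rich library stood above every poor one, a pattern that 0.98% of all tested genes showed (107 genes), and 0.284% showed the opposite (31 genes). The exceptions were Fbxw27, Dazl and Fbxw24, in which saline 2 reached down into the range of NAC 1 or NAC 2. As the 49 were called higher over these same 10 libraries, their lack of overlap is nearly fixed by that choice and is given as a description.

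Some of this pattern comes with the split. A gene whose RNA travels with the markers had to differ between these libraries, and a gene could pass the low-count filter through its rich libraries alone. Fewer cells of a type and less RNA per cell cannot be told apart in such bulk captures. The count of 49 fell to 8 without saline 4, 18 without saline 5 or saline 6, 19 without NAC 4 or saline 3 and 28 without saline 1, and rose to 80 without NAC 2. It was 72 without both NAC 2 and NAC 3, the libraries with the fewest reads (507418 and 115718, against 1287581 to 2473856 in the other 8). On simulated counts with this design and 10558 genes, the test recovered 4% of genes raised by 1 on the log2 scale, 64% at 2 and 92% at 4, and 32% of genes lowered by 2.

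**Figure D2:**
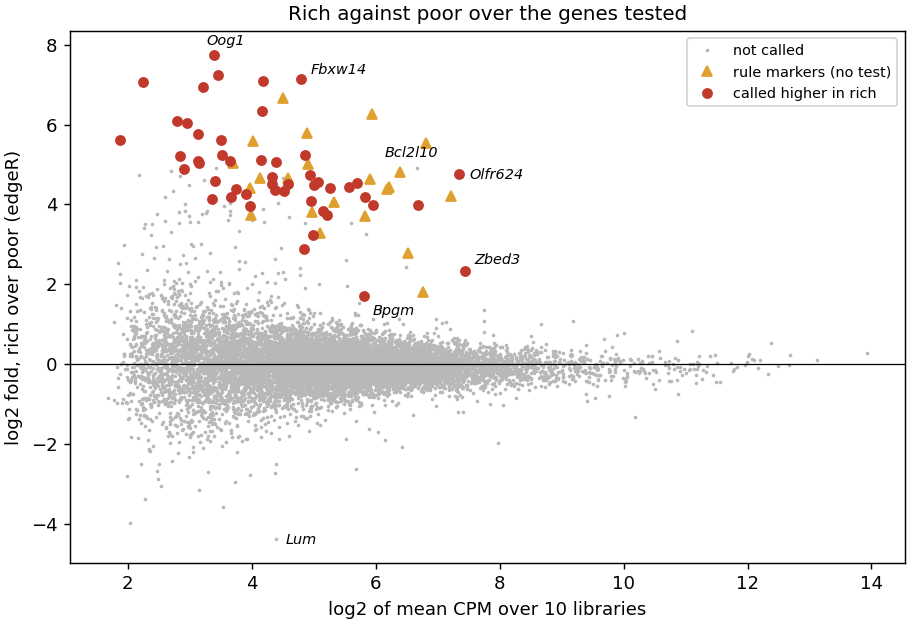
Each point is a tested gene: log2 of its mean CPM over 10 libraries against its edgeR log2 fold of rich over poor. The 49 called genes (red) lie between 1.69 (Bpgm) and 7.73 (Oog1); the marker genes (triangles) are shown with no test, and Lum has the lowest fold among the labelled genes without being called.

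Fbxw14, an F-box gene of chromosome 9 (109270790 to 109287676, minus strand), had the smallest p. F-box proteins pick the targets of ubiquitin ligases. Its values were 92.8, 94.1, 29.3 and 59.1 CPM in NAC 3, NAC 4, saline 2 and saline 4, while the poor libraries held 1.55 CPM in NAC 1, 1.97 CPM in NAC 2 and 0 in all 4 saline libraries. The 364 rich reads stood against 3 poor reads, a pooled ratio of 203-fold with an exact 95% interval of 68.9 to 989 that covers counting error only (edgeR adjusted p = 0.00038, log2 fold 7.14, SE 0.71). The libraries carry no molecular identifiers, so reads may be copies of 1 molecule, and a fitted fold with so few poor reads depends on the prior count.

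Plat encodes tissue-type plasminogen activator, which oocytes store as a dormant mRNA (chromosome 8, 22757727 to 22782844). It had 121, 238, 68.6 and 137 CPM in the rich libraries and 2.04 to 28 CPM in the poor ones (median 5.11). No poor library reached the lowest rich one, and the log2 fold was 4.00 (SE 0.45, edgeR adjusted p = 0.000886).

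Olfr624 (chromosome 7, 103665461 to 103671191), by name an olfactory receptor gene, showed 484, 296, 89.4 and 653 CPM against 2.93 to 37.4 CPM in the poor libraries (median 10.5). The ranges did not touch (log2 fold 4.77, SE 0.61, edgeR adjusted p = 0.00133). Hddc3, which encodes an HD-domain hydrolase, had 301, 214, 65.2 and 359 CPM against 4.51 to 35.8 CPM in poor libraries (median 13.5, log2 fold 3.99). It overlaps Man2a2 on the opposite strand, and as the sources used here do not state that counting used strand, reads of the pair may not be told apart. Obox5, an oocyte homeobox gene, had 17.3, 34.4, 18.0 and 39.8 CPM in the rich libraries and a single read in all 6 poor ones, in NAC 1. Its pooled ratio was 315-fold (exact 95% interval 55.8 to 12490, edgeR adjusted p = 0.00133). Umodl1, related to uromodulin by name, held 95.1, 82.6, 46.7 and 54.0 CPM in rich libraries and at most 6.01 CPM in a poor one, saline 1 (log2 fold 5.24).

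When each library was left out in turn, 8 of the 49 were called all 10 times: Fbxw14, Plat, Gm13084, Olfr624, Obox5, Hddc3, Oas1h and D6Ertd527e. Gm13084, a predicted gene on chromosome 4, had 28.3 to 69.1 CPM in the rich libraries and 2 reads in NAC 1 as its only reads in poor ones (pooled ratio 192-fold, exact 95% interval 52.7 to 1598). D6Ertd527e had 40.4 to 208 CPM in rich libraries, 20.2 and 21.7 CPM in NAC 1 and NAC 2, and at most 1.80 CPM in the poor saline libraries.

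**Figure D3:**
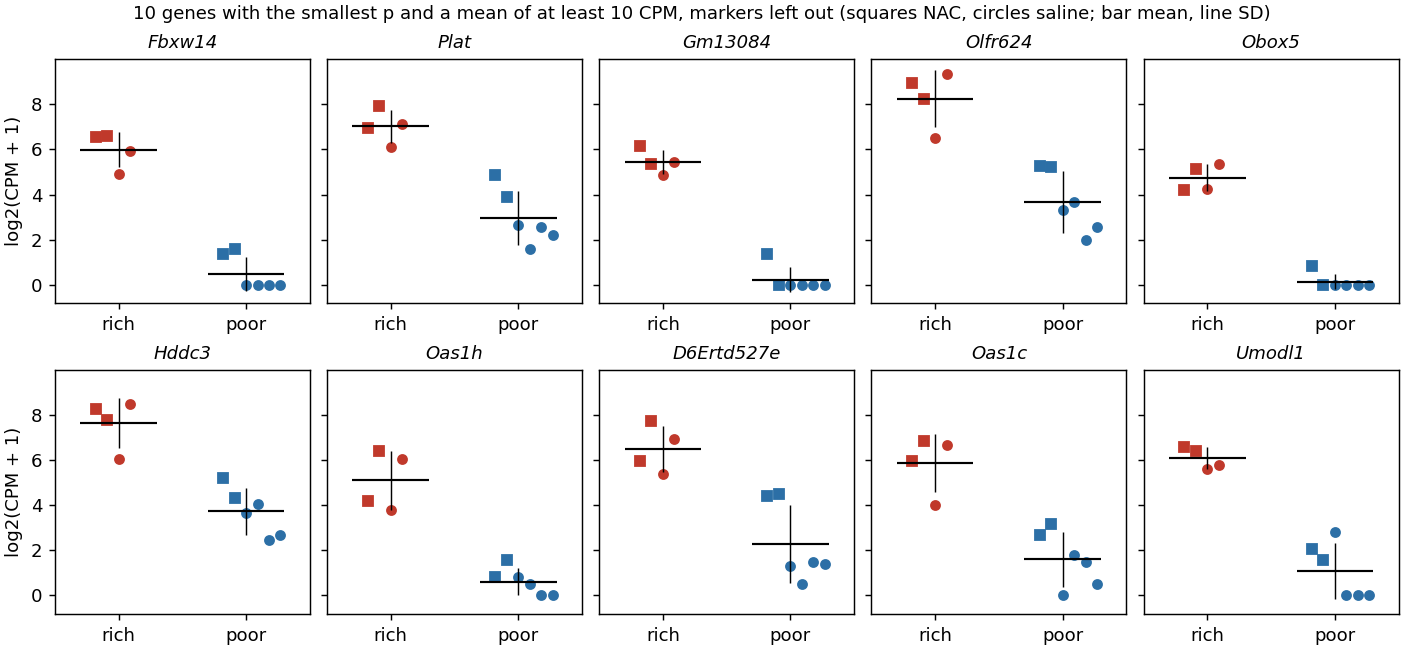
log2(CPM + 1) in each library for the 10 called genes with the smallest p among those with a mean of at least 10 CPM; bars are means and lines SD over 4 rich and 6 poor libraries, on the log2 scale. All rich points lie above all poor points, and the highest poor point is a NAC library (square) except for Umodl1.

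Of 12 genes of the oocyte's signals and surface, 7 passed the low-count filter and 1 was called: Oosp2, an oocyte-secreted protein gene, with 17.3, 16.9, 19.5 and 14.7 CPM in the rich libraries and reads in NAC 1 alone of the poor ones (3.11 CPM, log2 fold 5.22, edgeR adjusted p = 0.0324). The median log2 fold of the 7 was 1.47. For this list and those that follow, the share called higher over all tested genes outside the markers was 0.449%. Gja4 encodes connexin 37, which forms the gap junctions on the oocyte's side. It had 17.3, 36.8, 46.7 and 63.6 CPM in the rich libraries and 0 to 20.2 CPM in the poor ones, and did not pass (log2 fold 2.29, edgeR adjusted p = 0.158). The receptor gene Kit (log2 fold 0.91) and Bmp6 (-0.13) did not pass either. Gpr3, whose receptor holds the oocyte in meiotic arrest, had reads in saline 4 alone (5.19 CPM) and was not tested.

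The list of NLRP, KHDC, TCL1 and oogenesin families and cortical partners had 26 genes, of which 17 were tested and 6 called. All 17 had positive folds, with a median of 3.83 on the log2 scale. Over all tested genes outside the markers, 5336 of 10923 folds were positive. A member with few poor reads could pass the low-count filter through its rich libraries alone, so its positive fold was nearly fixed. The same holds for the F-box and transcription factor lists below. Nlrp9a had 34.6, 16.3, 6.81 and 11.2 CPM in the rich libraries and 1 poor read, in NAC 1 (pooled ratio 119-fold, exact 95% interval 20.6 to 4758). Nlrp4a had 12.7 to 38.0 CPM in rich libraries and 5.44 CPM in NAC 1 as its only poor value above 0. Zbed3 encodes a partner of the maternal complex. It was measured in all libraries, at 173, 530, 188 and 458 CPM in rich ones and 31.5 to 128 CPM (median 58.8) in poor ones, and its log2 fold was 2.34 (SE 0.40, edgeR adjusted p = 0.0129).

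Oog1, an oogenesin, had 56.0, 24.2, 11.4 and 12.8 CPM in rich libraries and 0 rounded reads in all 6 poor ones. Against a floor of 3 reads over the poor group it was at least 55.2-fold higher. That bound depends on how reads were divided between Oog1 and C87977, whose transcripts were 94.92% identical. C87977 had 6 poor reads. Oog3, a relative of Oog1, had 17.3, 26.5, 32.6 and 32.0 CPM in rich libraries, 3.11 and 1.97 CPM in the poor NAC libraries and 0 in the poor saline ones (log2 fold 5.61). Rfpl4, which encodes a RING finger protein of oocytes, was called as well (log2 fold 4.56, edgeR adjusted p = 0.0193). NAC 2 held 35.5 CPM of it, close to the 38.9 CPM of saline 2. Khdc1b (log2 fold 4.65, edgeR adjusted p = 0.0898) and Omt2b (4.04, 0.154) did not pass. For both, NAC 2 lay within the rich range, at 31.5 and 42.3 CPM.

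Of 14 F-box genes in the Fbxw family, 12 were tested and 6 called: Fbxw14, Fbxw28, Fbxw15, Fbxw21, Fbxw27 and Fbxw24. All 12 had positive folds, with a median of 4.49. Fbxw28 had 71.4, 87.5, 26.5 and 34.9 CPM in rich libraries, 15.8 CPM in NAC 2 and at most 3.11 CPM in the other poor libraries (log2 fold 4.51, edgeR adjusted p = 0.00656). Fbxw24 spread the most among rich libraries of the 6, from 2.43 CPM in saline 2 to 112 CPM in NAC 3, and the 18.6 and 21.7 CPM of NAC 1 and NAC 2 lay inside that range. Fbxw22 missed the threshold at an edgeR adjusted p of 0.0512 although no poor library reached a rich one. Fbxw17 had the smallest fold of the 12, with 17.7 to 86.4 CPM in rich and 26.1 to 51.2 CPM in poor libraries (log2 fold 0.31).

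The transcription factor list had 12 genes, 6 tested, all with positive folds (median 3.96), and 2 called, Obox5 and Sall4. Sall4, a zinc finger factor of germ cells, had 17.3, 20.5, 11.2 and 26.8 CPM in rich libraries and 2 poor reads, both in NAC 1 (pooled ratio 101-fold, exact 95% interval 27.4 to 845). Obox2 had 19.8 to 133 CPM in rich libraries, but 72.9 CPM in NAC 2, and did not pass (log2 fold 4.39, edgeR adjusted p = 0.155). Pou5f1, a pluripotency factor that oocytes also make, had 3.89 to 17.3 CPM in rich libraries and 0 in all poor ones, too few reads for the filter. Sohlh1 had no reads in any library.

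Among 21 genes of RNA storage and decay, 14 were tested, 4 were called and the median log2 fold was 0.91. Cpeb1, which holds and later releases mRNAs through their poly(A) tails, had 43.2, 62.7, 16.5 and 45.4 CPM in rich libraries. Of the poor ones only NAC 1 (9.32 CPM) and saline 3 (0.407 CPM) had reads (log2 fold 5.12, edgeR adjusted p = 0.0172). Btg4, an adapter of the deadenylase that clears maternal RNA, had 86.4, 115, 69.1 and 52.3 CPM in rich libraries. NAC 2 came near to them with 49.3 CPM, and the poor saline libraries held at most 0.751 CPM (log2 fold 4.42). Dazl and Pabpc1l, which encode RNA-binding proteins that raise translation in germ cells, had log2 folds of 4.18 and 4.14. Genes of this list that most cells use did not pass, such as Cnot7 (0.27), Eif4enif1 (0.31) and Slbp (-0.02).

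Of the meiosis genes, 8 were tested and 0 called (median log2 fold 0.40). Wee2, a kinase that keeps oocytes arrested, had 25.9, 61.5, 7.30 and 25.5 CPM in rich libraries, but 37.4 CPM in NAC 2 (log2 fold 3.62, edgeR adjusted p = 0.331). Of 17 tested genes of maternal chromatin 1 was called, Zfp57, whose zinc finger protein guards imprinted methylation. It had 86.4, 97.7, 39.4 and 96.4 CPM in rich libraries and 0 to 22.5 CPM in poor ones (median 4.56, log2 fold 3.75, SE 0.69, edgeR adjusted p = 0.0193). The list's median was 0.06, and Trim28, the partner of Zfp57 that most cells make, had 302 to 460 CPM in rich and 106 to 533 CPM in poor libraries.

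**Figure D4:**
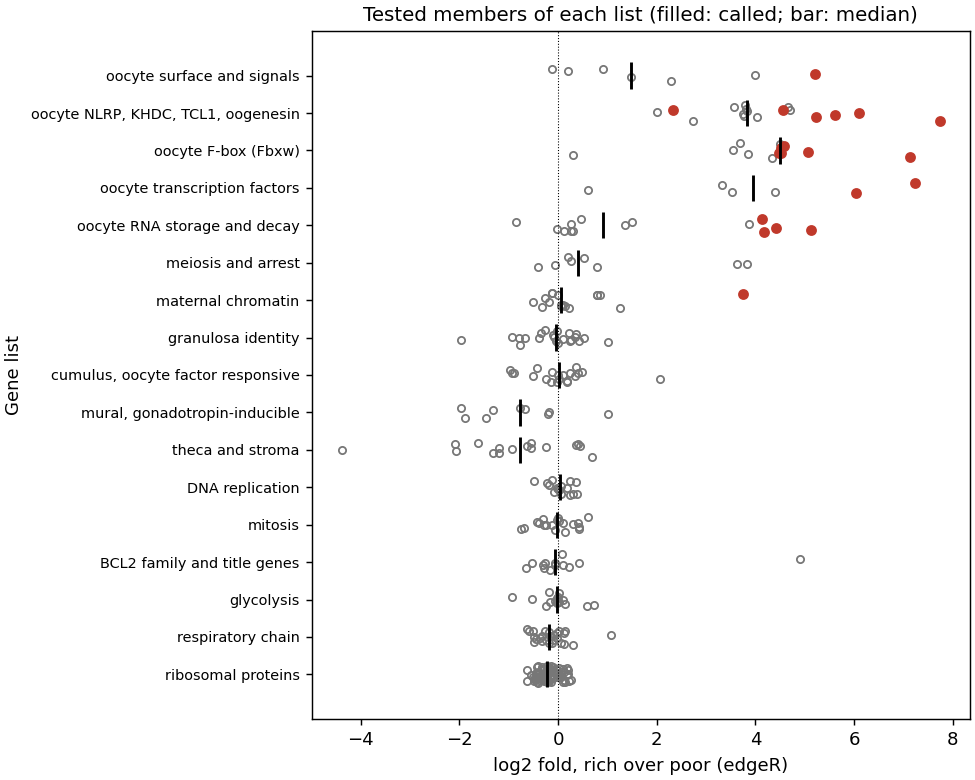
Each circle is a tested list member placed by its edgeR log2 fold of rich over poor; filled circles were called and bars mark list medians. The NLRP, F-box and transcription factor lists of the oocyte have medians of 3.83 to 4.49. Some of their members could pass the low-count filter through rich libraries alone. The other oocyte, meiosis and maternal chromatin lists have medians of 0.06 to 1.47. The mural and stroma lists have -0.77 and -0.78, and the granulosa, cell cycle and metabolic lists lie around 0, all with no called member.

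Genes called outside the lists numbered 29. From the Oas1 family 3 members, which are relatives of the antiviral oligoadenylate synthetases, were called beside the marker Oas1d: Oas1h, Oas1c and Oas1e. Oas1h had 17.3, 82.0, 12.7 and 64.0 CPM in rich libraries and at most 1.97 CPM in poor ones (log2 fold 6.35, SE 0.83, edgeR adjusted p = 0.00151). Bpgm, which makes 2,3-bisphosphoglycerate beside glycolysis, had the smallest fold of the 49. Its levels were 86.4, 139, 65.2 and 101 CPM in rich and 18.6 to 41.4 CPM in poor libraries (median 26.7), with no overlap (log2 fold 1.69, SE 0.32, edgeR adjusted p = 0.0232). Ldhb and the other 16 tested genes of the glycolysis list did not pass.

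Other called genes were Mtus1, a microtubule-associated tumour suppressor gene (log2 fold 3.22), Meis2, a homeobox factor gene (2.87), Miox, the gene of myo-inositol oxygenase (4.33), and Rab3b, a vesicle GTPase gene (pooled ratio 95.4-fold, exact 95% interval 16.4 to 3832). Tuba3a, an alpha-tubulin gene, and Lmo1, a LIM-domain gene, had log2 folds of 5.08 and 4.88. Rab3b and Tuba3a rest on low levels, with 5.43 to 13.6 and 8.64 to 32.0 CPM in rich libraries. Gm6205 had 5.73 to 16.4 CPM there and no rounded poor read, at least 37.9-fold higher. In all, 9 of the 49 overlap another annotated gene, among them Cd164l2, which overlaps Gpr3.

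Several called genes are neighbours on their chromosomes. The 6 called Fbxw genes lie within 651 kb of chromosome 9, with no gap above 500 kb between them. Oas1e, Oas1c, Oas1h and the marker Oas1d lie within 135 kb of chromosome 5. Gm13084, Oog3 and C87977 lie within 404 kb of chromosome 4, and Nlrp4a and Nlrp9a within 141 kb of chromosome 7. Salmon splits reads between similar sequences, so the division within such families is uncertain. Over their whole alignment the transcripts of Fbxw14 and Fbxw28 were 87.05% identical, those of Oog1 (chromosome 12) and C87977 94.92%, and those of the Oas1 members 61.1% to 75.17%.

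Promoters of 5 genes are shown because they carry the pattern: a neighbouring Fbxw pair that was high in the same libraries, a homeobox and an oogenesin gene with at most 1 poor read, and Zp3 from the marker list. Each window runs from 250 bases before to 50 after the annotated start (RefSeq, GRCm38.p6), 5′ to 3′ on the gene's strand. Capitals mark the E-box CANNTG, the word bound by FIGLA and other basic helix-loop-helix factors; it reads as the same word on both strands. The windows are chr9:109287627-109287926 (minus strand) for Fbxw14, chr9:109339610-109339909 (minus) for Fbxw28, chr7:15750120-15750419 (plus) for Obox5, chr12:87602415-87602714 (plus) for Oog1 and chr5:135979855-135980154 (plus) for Zp3.
Fbxw14: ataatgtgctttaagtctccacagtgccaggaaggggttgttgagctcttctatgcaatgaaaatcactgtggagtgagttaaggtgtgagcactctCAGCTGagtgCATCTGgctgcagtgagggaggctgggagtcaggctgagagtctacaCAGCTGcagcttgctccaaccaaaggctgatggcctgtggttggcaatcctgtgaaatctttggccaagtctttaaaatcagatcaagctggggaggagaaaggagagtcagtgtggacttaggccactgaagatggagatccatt
Fbxw28: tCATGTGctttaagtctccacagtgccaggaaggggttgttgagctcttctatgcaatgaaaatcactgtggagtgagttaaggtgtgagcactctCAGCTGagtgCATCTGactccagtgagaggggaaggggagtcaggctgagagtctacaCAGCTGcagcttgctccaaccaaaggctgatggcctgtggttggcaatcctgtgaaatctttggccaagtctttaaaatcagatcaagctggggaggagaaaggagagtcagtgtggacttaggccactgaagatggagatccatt
Obox5: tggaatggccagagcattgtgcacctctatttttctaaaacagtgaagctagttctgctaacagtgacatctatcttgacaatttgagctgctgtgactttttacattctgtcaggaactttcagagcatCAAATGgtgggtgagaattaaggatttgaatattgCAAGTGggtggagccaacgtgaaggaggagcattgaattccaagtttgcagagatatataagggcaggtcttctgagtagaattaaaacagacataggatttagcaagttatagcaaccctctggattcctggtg
Oog1: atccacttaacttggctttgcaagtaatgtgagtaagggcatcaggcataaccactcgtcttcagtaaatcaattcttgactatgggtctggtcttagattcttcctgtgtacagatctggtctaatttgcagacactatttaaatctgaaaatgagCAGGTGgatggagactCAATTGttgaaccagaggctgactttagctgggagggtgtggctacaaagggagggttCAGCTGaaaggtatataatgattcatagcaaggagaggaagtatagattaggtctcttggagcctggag
Zp3: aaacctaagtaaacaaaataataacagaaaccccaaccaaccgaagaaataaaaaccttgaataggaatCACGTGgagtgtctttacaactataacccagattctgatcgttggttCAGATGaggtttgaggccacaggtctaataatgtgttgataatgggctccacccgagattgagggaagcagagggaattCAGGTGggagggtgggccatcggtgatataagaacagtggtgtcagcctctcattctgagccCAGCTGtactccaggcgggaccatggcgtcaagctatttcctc

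The Fbxw14 and Fbxw28 windows were 96.7% identical over 303 alignment columns and held 3 and 4 such words. Obox5 held 2, Oog1 3 and Zp3 4. RefSeq promoters were found for 37 of the 49 called genes (45 promoters), of which 39 (86.7%) held CANNTG, beside 62.7% of 10882 promoters of tested genes and 72.3% of all 32851. For the markers it was 16 of 17 (94.1%). The narrower CAGGTG, read on both strands and so also as CACCTG, stood in 28.9% of the called genes' promoters, 16.9% of those tested and 58.8% of the markers'; it was chosen after the values were seen and is contained in CANNTG. The word TAATTG, with its variants TAATTA or else TAGTTG, which NOBOX binds, were searched on both strands and stood in 13.3% of the called genes' promoters, 11.6% of those tested, 17.9% of all promoters and 35.3% of the markers'. TATAAA, also searched on both strands, stood in 17.8% of the called genes' promoters, 6.67% of those tested, 13.6% of all promoters and 11.8% of the markers'. For the narrower E-box the share of all promoters was 20.2%. These are matches of letters, not sites. The promoters are not independent: with 45 promoters for 37 called genes, some genes count more than once. Among Fbxw14, Fbxw15, Fbxw21, Fbxw24 and Fbxw28 the windows were 87.83% to 96.7% identical, so near copies of a window also count several times.

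The labelled cell type was well represented in both classes. None of 22 tested granulosa identity genes passed edgeR's test, and their median log2 fold was -0.03. Over all tested genes outside the marker list 0.449% were called higher and 0% lower. A count of 0 called in this list and in those below is near these shares and says little about the members. Inha, the inhibin alpha gene, had 8815, 8944, 10612 and 29095 CPM in the rich libraries and 2489 to 28728 CPM in the poor ones (median 16870). Saline 4 stood with saline 3, 5 and 6, and saline 2 with saline 1 and the NAC libraries, so the order of Inha did not follow the marker sum (log2 fold 0.27, edgeR adjusted p = 0.999). Foxl2, a factor that keeps granulosa identity, had 132 to 201 CPM in rich and 80.8 to 203 CPM in poor libraries (log2 fold 0.22). Of the list, Nnat (-0.93) and Inhba (-1.97) had the smallest unadjusted p, and neither passed (edgeR adjusted p = 0.999 for both).

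Genes that oocyte factors are known to raise in cumulus cells, the granulosa cells next to the oocyte, had a median near that of all genes. Of 25 genes, 20 were tested, 0 were called and the median log2 fold was 0.01, beside -0.01 for all genes. Slc38a3, an amino acid carrier gene of cumulus cells, had 25.9, 121, 110 and 348 CPM in rich and 43.4 to 218 CPM in poor libraries (log2 fold 0.33). Amh, an oocyte-responsive hormone gene, had 60.5 to 302 CPM in rich and 1.97 to 270 CPM in poor libraries (log2 fold 0.37). Smad6 had the highest fold of the list, 2.06 (edgeR adjusted p = 0.762), with no reads in NAC 3 and NAC 2. The cumulus expansion genes Has2, Ptx3, Tnfaip6 and Ptgs2 had at most 1.55 CPM in any library.

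The genes of mural cells and of gonadotropin action had 9 tested members with a median log2 fold of -0.77, and 0 of the 9 were called. Cyp11a1, which starts steroid synthesis from cholesterol, had 0, 28.7, 31.8 and 5.44 CPM in rich libraries and 8.96 to 113 CPM in poor ones (median 71.8). The ranges overlapped, and it did not pass (log2 fold -1.88, edgeR adjusted p = 0.904). Hsd3b1, the next enzyme of that path, had 147, 782, 968 and 673 CPM against 527 to 2716 CPM in poor libraries (log2 fold -1.33). The 1 member with a positive fold was Nppc (1.02), whose peptide keeps the oocyte arrested; NAC 4 alone held 198 CPM of it, and the other rich libraries 25.9 to 41.9 CPM.

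Of the theca and stroma markers 16 were tested and 0 called. Their median log2 fold was -0.78, and 12 of the 16 folds were negative, beside 5587 of the 10923 tested genes outside the marker list. Their summed level was 234 to 1296 CPM in rich and 165 to 3065 CPM in poor libraries, a log2 difference of -0.60 that did not pass (exact permutation p = 0.576) and was -1.06 (without NAC 4) to -0.19 (without NAC 2) leaving out 1 library. Lum, the gene of the matrix protein lumican, had 0, 2.31, 0 and 1.73 CPM in rich libraries and 0.407 to 124 CPM in poor ones (median 20.7). Saline 3 fell among the rich values, and the log2 fold of -4.38 did not pass (edgeR adjusted p = 0.132). Among other members with no call, the log2 folds were -2.08 for Acta2, a smooth muscle actin gene, -1.62 for Dcn, the decorin gene, -0.56 for the collagen gene Col1a1 and 0.41 for Gli1, a Hedgehog pathway factor gene. Agt, angiotensinogen, outside the lists, had 8.64, 9.05, 23.4 and 61.8 CPM in rich libraries and 34.5 to 227 CPM in poor ones (log2 fold -1.92, edgeR adjusted p = 0.328). With the stroma level as a further covariate, 22 genes were called, all among the 49; the part of stroma RNA in the other calls was not tested.

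Endothelial markers summed to 34.6 to 143 CPM in rich and 24.7 to 180 CPM in poor libraries, with 5 tested and 0 called. Of the 11 immune and blood markers none passed the low-count filter. Their sum was 0 CPM in NAC 3, 6.07 CPM in saline 4, 110 CPM in saline 2 and 951 CPM in NAC 4, against 3.26 to 76.1 CPM in poor libraries. The value of NAC 4 came mostly from the haemoglobin genes Hba-a2 (465 CPM), Hba-a1 (295 CPM) and Hbb-bs (138 CPM), while Cd68 and Csf1r were at 0 there. Krt18 was the single surface epithelium gene tested (log2 fold -0.53).

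Genes of growth and metabolism had medians near 0 with 0 called: 0.04 over 16 tested genes of DNA replication, -0.02 over 19 of mitosis, -0.01 over 17 of glycolysis, -0.18 over 26 of the respiratory chain and -0.22 over 80 ribosomal protein genes. Of the 80 ribosomal protein genes 63 had negative folds, beside 5587 of the 10923 tested genes outside the marker list. Their summed levels overlapped, at 61433 to 118732 CPM in rich and 75424 to 122583 CPM in poor libraries.

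Rich and poor libraries were also set against each other on 7 measures of the whole library, by a two-sided exact permutation test on the 210 possible splits into 4 and 6 (smallest possible p 0.00476). The measures were total reads, the share of tested genes with reads, the mitochondrially encoded share, and the summed granulosa, stroma, endothelium and immune markers. All 7 had p of 0.576 or more and a Benjamini-Hochberg adjusted p of 0.886. Total reads were 115718 to 2312988 in rich and 507418 to 2473856 in poor libraries. Mitochondrially encoded transcripts took 2.08% to 4.45% and 1.54% to 4.37%. A p of this size does not show that the libraries were alike.

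Folds of the called genes were also fitted in NAC libraries alone (2 rich against 2 poor) and in saline libraries alone (2 against 4), which 43 of the 49 allowed. These genes were called as higher over the same 10 libraries, so their sign within a treatment is nearly fixed by that choice, and the folds are given as a description. Their median log2 fold was 3.32 in NAC and 5.94 in saline, and 41 of 43 were larger in saline. The treatments differ in how poor their poor libraries were, as the marker sums show. The highest poor library was a NAC library in 46 of the 49, a share that was not counted over all tested genes. Counted by detection, NAC 1 had reads of 47 of the 49 genes and NAC 2 of 29, against 16 to 23 in the poor saline libraries. Each rich library had 49, which the calling nearly fixes. Over all tested genes the share with reads was 99.3% in NAC 1, 85.0% in NAC 2, 97.8% to 98.8% in the poor saline libraries and 85.4% to 99.5% in the rich ones. With saline libraries alone, 55 genes were called, of which 31 were among the 49; with NAC libraries alone edgeR called 0, with 154 at an unadjusted p under 0.05.

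The difference between the treatments was also tested, as an interaction term in edgeR over the same genes, and 1 gene (0.00915%) passed. Bcl2l10 encodes a BCL2 relative that oocytes express strongly (chromosome 9, 75347758 to 75351632). In rich libraries it had 121, 323, 98.3 and 274 CPM. Of the poor libraries, NAC 1 and NAC 2 had 67.6 and 132 CPM, and the 4 saline ones at most 0.808 CPM. NAC 2 stood above NAC 3 and saline 2, so rich and poor overlapped in NAC and were far apart in saline. The log2 interaction was -7.34 (edgeR adjusted p = 0.0493), and the fold over both treatments, 4.91 on the log2 scale, did not pass (edgeR adjusted p = 0.0605). Poor NAC libraries held more marker RNA than poor saline ones, so a gene that travels with the markers tends to a negative interaction by the split itself. The fitted interactions of the markers were all negative, from -7.31 (Bmp15) to -0.51 (Tle6). An effect of treatment on Bcl2l10 cannot be told apart from this. The interaction call was lost without NAC 3, NAC 4, saline 1, saline 3, saline 4, saline 5 or saline 6 (0 genes each) and without NAC 1 the count became 775. Before adjustment, 437 genes had a p under 0.05.

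**Figure D5:**
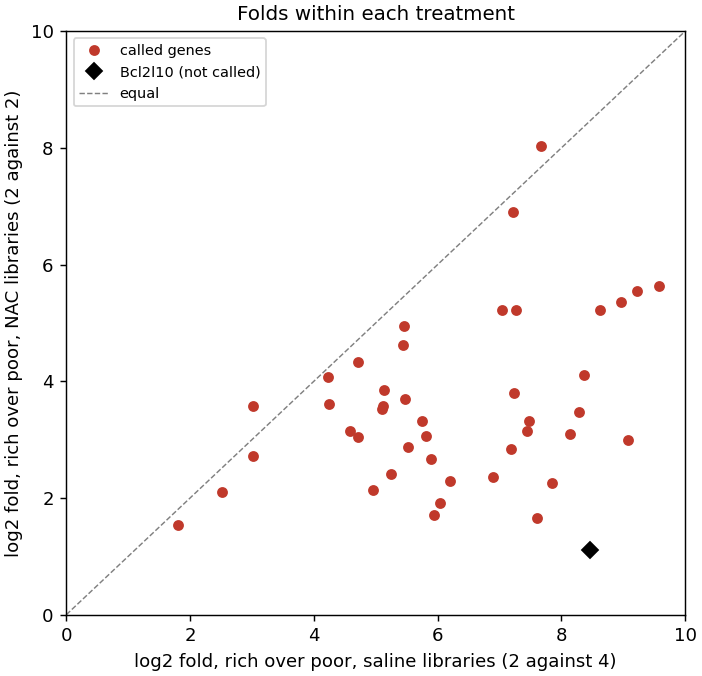
log2 fold of rich over poor in the saline libraries (2 against 4) against that in the NAC libraries (2 against 2) for the 43 called genes with both; 41 lie below the dashed line of equal folds. The diamond is Bcl2l10, which was not called.

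Outside the markers, 5 genes followed the marker sum most closely by Spearman's correlation of CPM over the 10 libraries, given as a description: Zfp57 (0.988), Oas1h (0.985), Bpgm (0.976), Fbxw20 (0.976) and Oas1e (0.963). Fbxw20 was not called (edgeR adjusted p = 0.231), with 16.4 to 23.1 CPM in rich libraries and 7.77 and 11.8 CPM in NAC 1 and NAC 2. With the rich class widened to 500 CPM, which adds NAC 1 and NAC 2 to it, 50 genes were called and 25 of them were among the 49.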

How the data were processed

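Polyadenylated RNA of 10 laser-captured granulosa cell samples (4 NAC, 6 saline) had been sequenced. The authors deposited 1 table per library with estimated counts (Salmon's number of reads per gene, often not whole), transcript lengths and TPM, per the file headers. Salmon and GRCm38 are named in the submitters' processing notes; its version is not given in the sources used here, nor is the use of strand. Rows without a gene symbol (1548 rows, 0.496% to 0.638% of reads) were left out.

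Estimated counts were rounded and tested with edgeR 4.0.16 in R 4.3.3 (quasi-likelihood, robust, TMM, filterByExpr), with treatment as a covariate, Benjamini-Hochberg over 10945 genes, called under 0.05. Log2 folds are TMM-scaled; CPM are per library total. Rich and poor were set from measured marker reads, and the markers and gene lists were chosen with earlier results of these data known. The deposited TPM served alternatives only, as log2(TPM + 1) and log2(TPM + 0.1), as did DESeq2 1.42.0 and limma 3.58.1; a count test stayed the main result. Further alternatives were other scaling, filters, covariates, splits, thresholds, each library left out, thinning and the replicate block. NAC 2 and NAC 3 left out together was added after seeing the data. A fold against 0 poor reads uses a floor of 3 reads over the group. Depth was 115718 to 2473856 reads, so 1 read in NAC 3 is 8.64 CPM and 3 reads are 25.9 CPM.

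Genes were picked for naming as the 10 per direction with the smallest p among genes averaging 10 CPM or more. Up to 3 members per list with the smallest p and the 5 genes most alike to the marker sum were added. Not all of these are described: of the lower direction only Lum, Agt and Nsl1 are. Other list members and other called genes were named after their values were seen. The test was checked on simulated counts. Positions come from GENCODE for GRCm38, promoters from RefSeq.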

Additional observations from a re-analysis of the deposited data

Results flagged for a closer look

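In 19 of 162 groups of 4 rich or 6 poor libraries (11.7%), 1 library stood far from the rest. The 5% that chance gives for this measure does not apply to groups with few reads: a single library with reads among zeros always stands apart, and many genes here were named for low poor values. Most of these were the 2 shallowest or the poor NAC libraries. Among poor libraries NAC 1 was highest for Gm13084 (1.55 CPM), Obox5 (0.777 CPM), Oosp2 (3.11 CPM), Nlrp9a (0.777 CPM) and Sall4 (1.55 CPM), with 0 in the other 5, and for Cpeb1 (9.32 CPM, others at most 0.407). NAC 2 was the lowest poor library for Gja4 (0 CPM, others at least 6.76) and Smad6 (0 CPM, others at least 4.51), and the highest for Oosp3 (11.8 CPM, others at most 1.55) and Rpl35a (637 CPM, others at most 394).

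Among rich libraries NAC 3 was lowest for Smad6 (0 CPM), Egfl7 (0 CPM), Bok (104 CPM) and Uqcrq (69.1 CPM), and highest for Cox5a (501 CPM, others at most 227). It also had the fewest reads (115718) and the lowest share of tested genes with reads (85.4%), as NAC 2 had among poor libraries (85.0%). Zfp57 was lowest in saline 2 (39.4 CPM, other rich libraries at least 86.4).

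The difference of rich over poor between NAC and saline was called by edgeR for Bcl2l10, with a log2 interaction of -7.34 (adjusted p = 0.0493). The poor NAC libraries held more marker RNA than the poor saline ones, which cannot be told apart from treatment here.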

How the results depend on the processing

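The 49 calls became 37 with at least 10 CPM in 4 libraries, 98 with DESeq2 (96 higher, 2 lower), 121 with limma-voom, 80 with the log2 marker sum as a number, 9 with log2(TPM + 0.1), 52 with log2(TPM + 1), 165 with no low-count filter (152 higher, 13 lower), 24 without the treatment covariate, 22 with the stroma covariate, 12 at an adjusted p under 0.01, and 8 to 80 leaving out 1 library. NAC libraries alone gave 0, as did thinning to the shallowest library, where 3460 genes were tested (27 at an unadjusted p under 0.05). With the replicate number as a block edgeR called 0 (543 at an unadjusted p under 0.05). Replicates 2 and 3 were the only numbers shared by a rich and a poor library. Only these compare rich with poor inside a block, so the 0 calls do not show that the difference was absent. The labels do not say what a shared number marks. Correlations of same-numbered deviations over 10945 genes were 0.00399, 0.419, 0.227 and 0.0525 for replicates 1 to 4, over 0.1 in 2 of the 4 pairs, so the data do not settle whether the numbers pair the samples. The interaction count of 1 became 0 with RLE factors or the stricter filter, 8 with DESeq2, and 0 to 775 leaving out 1 library; where that left 1 library of a kind, it was assumed to vary like the others.

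Signs turned for Pttg1 (-0.17), Krt18 (0.013), Fen1 (0.083) and Slc2a1 (-0.14) with NAC libraries alone; Acta2 (0.092) and Emcn (0.80) with the stroma covariate; Emcn (0.44) and Kif20a (0.17) with the block; Rrm2 with NAC 2 and NAC 3 left out (-0.086), limma-voom (-0.10), the 500 CPM split (-0.15) and saline alone (-0.17); Tpi1 with limma-voom (0.0036) and the 500 CPM split (0.013); Cox5a with that split (-0.068) and saline alone (-0.085); and Ndufa2 with thinning (0.28). None of these had passed the test. Of the library measures, the log2 difference of the granulosa sum (0.088) became -0.0019 with TMM and -400.7 in plain CPM. Leaving out 1 library gave -0.13 to 0.23 for it, -0.52 to 0.15 for endothelium, -1.15 to 2.15 for immune and blood markers, -1.04 to 0.40 for total reads, -3.09 to 2.52 percentage points for genes with reads and -0.30 to 0.55 for mitochondrially encoded transcripts. The cause was not tested in any of these. Low depth limits NAC 3 most, where a gene below 8.64 CPM has no read.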
